A study of Rattus norvegicus with 9 samples.

Results

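The comparison described here set the supraoptic nucleus after 3 days of dehydration against that of controls. It used the 3 arrays labelled as dehydrated for 3 days and the 3 control arrays, 6 of the 9 arrays of the series, chosen by their labels and not by any measured value. The other 3 arrays came from animals dehydrated for 1 day, and they entered the shared estimate of spread. All groups were male Sprague Dawley rats aged 10 to 12 weeks with no named transgene or drug. Total RNA of the nucleus was labelled and hybridised to Affymetrix rat expression arrays. In the titles the 3 arrays of a group carry the letters a, b and c. The labels do not say whether an array holds 1 animal or a pool, nor how water was withheld, so the p-values cover no more than the spread among these arrays, and some of that spread may be technical.

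The supraoptic nucleus is a cluster of large neurosecretory neurons at the base of the hypothalamus that make vasopressin and oxytocin and send their axons to the posterior pituitary. When plasma osmolality rises these magnocellular neurons fire more, release vasopressin, which makes the kidney retain water, and oxytocin, which in the rat promotes sodium loss, and replace the released hormone by new synthesis. Sustained dehydration is known for larger magnocellular cell bodies, retraction of astrocyte processes from between them and remodelled synapses. The tissue is bulk, so fewer cells of a type and less RNA per cell cannot be told apart.

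The promoters of 3 genes are shown because cyclic AMP is a well-studied signal to the nucleus in these neurons. It acts through the factor CREB, whose consensus site is TGACGTCA, a palindrome that reads the same on both strands. Th encodes tyrosine hydroxylase and Vgf a granule protein, and the Avp gene encodes vasopressin with its carrier neurophysin. Each line gives the 140 bases before the start of the gene, 5′ to 3′ on the gene's own strand, from RefSeq on GRCr8, with the consensus in capitals where it is found. Th lies at chr1:207508219-207508358, Vgf at chr12:25277021-25277160 and Avp at chr3:138248523-138248662, all on the minus strand.
Th: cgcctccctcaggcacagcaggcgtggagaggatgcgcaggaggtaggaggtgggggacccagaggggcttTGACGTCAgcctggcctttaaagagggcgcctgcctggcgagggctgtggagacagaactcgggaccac
Vgf: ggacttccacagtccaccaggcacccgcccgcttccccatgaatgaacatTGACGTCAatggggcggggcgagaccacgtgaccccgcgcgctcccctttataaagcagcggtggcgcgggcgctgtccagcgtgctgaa
Avp: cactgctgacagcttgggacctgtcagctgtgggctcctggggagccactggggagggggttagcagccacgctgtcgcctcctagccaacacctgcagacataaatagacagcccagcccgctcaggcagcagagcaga
The consensus begins 69 bases before the start in Th and 90 bases before it in Vgf, and these letters are not in the Avp window. Of 33469 rat promoter windows of 300 bases (250 before and 50 after the start), 612 hold it, or 1.83%. Of the 94 genes named here that have such a window, 6 hold it, and the others are Hsp90ab1, Napa, Psmb2 and Dusp1. A match describes the letters and shows no binding.

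Signals are MAS5 values, which combine the probes of a probe set into 1 number on a linear scale, and differences are on log2(signal + 4), 3 days minus control, ± SE. The SE comes from a fit that does not pair arrays by letter, so spread between letters is part of it. No single gene passed the test. Of 5245 probe sets limma called 0 at an adjusted p under 0.05 (0%; the smallest adjusted p was 1.00), and 90 had an unadjusted p under 0.05, or 1.72%, with 56 higher and 34 lower. In a fit blocked on the letter, 0 were called, the smallest adjusted p was 0.87 and 270 had an unadjusted p under 0.05. The counts below therefore describe these arrays, and no gene is said to have changed. They are over 3188 genes, each read by its brightest probe set with 1 gene symbol. Of these, 1652 (51.8%) were higher after 3 days, and the median difference was 0.01. In 147 genes (4.61%) the lowest 3-day array exceeded the highest control, here called fully above control, and 98 (3.07%) were fully below it. With 3 arrays per group, groups can separate this fully when nothing differs, so a lack of overlap alone shows no difference. At least a 2-fold difference was seen in 37 genes upward and 44 downward, and 19 and 13 of these did not overlap.

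Some arrays stood apart. The brightest probe set read 2105 on control array c, against 3951 and 3867 on control arrays a and b, and it read 6295 on the 3-day array c against 4830 and 4854 on 3-day arrays a and b. Among the 10% of genes with the brightest signal, 192 of 319 (60.2%) were higher after 3 days, with 38 (11.9%) fully above control and 10 (3.13%) fully below. After quantile normalization, which gives every array the same range, 49.2% were higher, with 18 (5.64%) above and 11 (3.45%) below. The 3-day array b read at least 4-fold under all other arrays for 24 genes, against 0 to 6 on the other arrays of the comparison. Of the 1-day arrays, which enter the spread behind each SE, c did so for 76 genes, b for 17 and a for 2. The median residual SD was 0.48 over all 9 arrays and 0.43 over only the 6 compared. The Gapdh ratio of 3' to 5' signal, a sign of RNA integrity, was 0.93 to 1.09 in control and 0.89 to 1.55 after 3 days, highest on array c. The part of signal range, single arrays or RNA integrity in the values below was not tested. Of the 115 genes named by rule and tested, 79 moved toward 0 by over 1.5 times when some array or letter was left out. For those described below that rest most on an array, the value without it or after quantile normalization is given.

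**Figure D1:**
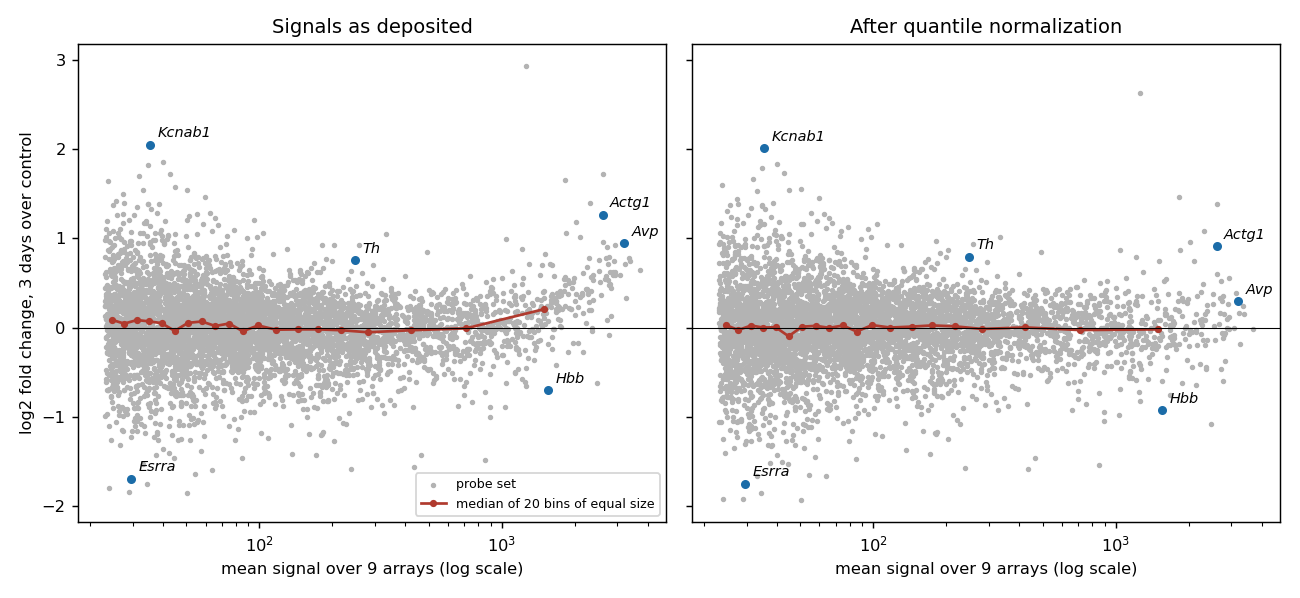
Difference between 3 days and control (log2, vertical axis) against mean signal over the 9 arrays (log scale, horizontal axis) for the 5245 probe sets tested, with the signals as deposited on the left and after quantile normalization on the right. Each grey point is a probe set, the red line joins medians of 20 equal bins, and 6 genes are named; the line turns upward among the brightest probe sets on the left, and Avp falls from 0.95 to 0.30 between the panels while Kcnab1, at 2.05 and 2.02, stays.

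The genes of vasopressin, oxytocin, dynorphin and cholecystokinin stood above control on all 3-day arrays. Avp read 2868, 2487 and 1765 on control arrays a, b and c, and 3871, 4108 and 5678 after 3 days. The lowest 3-day array was above the highest control, and the difference was 0.95 ± 0.33. It was 0.30 after quantile normalization and 0.58 without letter c. A dimmer Avp probe set read 1632, 835 and 8.2 in control and 2584, 1053 and 2739 after 3 days, with overlap.

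Oxt, which encodes oxytocin, read 3074, 2331 and 208 in control and 3910, 3219 and 4356 after 3 days. Control array c is far below the rest, and 1-day array c, at 272, is the other low value. The difference of 1.72 ± 1.05 was 0.50 without control c and 0.41 without letter c. The groups did not overlap.

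Pdyn encodes prodynorphin, whose opioid peptide vasopressin neurons store in the same granules. It read 643, 529 and 651 in control and 815, 806 and 1120 after 3 days, with no overlap (0.58 ± 0.29), and a second probe set stood at 0.65. Cck, the cholecystokinin precursor that oxytocin neurons also make, read 19.5, 23.5 and 12.2 in control and 82.6, 72.0 and 37.8 after 3 days, a difference of 1.57 ± 0.51 at low signal with no overlap. Galanin did not share this: Gal read 188, 157 and 312 in control and 128, 220 and 189 after 3 days (-0.26 ± 0.32).

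Among neuropeptide precursors as a list, 22 of the 33 with a probe set passed the filter on mean signal. The median was 0.03 (-0.10 without 3-day c), 11 genes were higher, 11 were lower, and the 4 fully above control were the 4 hormone and peptide genes just given. Over all genes 4.61% were fully above and 3.07% fully below. After quantile normalization the list had 3 above and 1 below. Edn3, which encodes endothelin 3, stood at 0.98 ± 0.50 with overlap, and at 0.54 without control b. Of the peptides of neighbouring cells, Tac1, the substance P precursor, stood at -0.47 ± 0.33 and Tac3, the neurokinin B precursor, at -0.85 ± 0.59, both with overlap. Without letter b they stood at -0.28 and -0.39. Crh, corticotropin-releasing hormone, lay under the filter, at 2.8 to 26.3 on the 6 arrays.

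The machinery that packs and cuts prohormones stood slightly higher, with 13 of 18 tested genes up, a median of 0.18 (0.07 without 3-day b) and letter-pair medians of 0.16, 0.07 and 0.12. Vgf read 477, 584 and 570 in control and 550, 837 and 832 after 3 days (0.42 ± 0.24). The lowest 3-day array fell inside the control range. Pcsk2, prohormone convertase 2, read 121, 125 and 108 in control and 140, 165 and 165 after 3 days, without overlap (0.39 ± 0.28); it was picked after its values were seen. Lnpep, an aminopeptidase that degrades oxytocin and vasopressin, stood at 1.06 ± 0.51 (0.64 without letter a), with signals of 9.4 to 24.6 in control and 26.4 to 45.9 after 3 days. Chgb, the granule protein chromogranin B, went the other way, at 336, 515 and 494 in control and 339, 249 and 306 after 3 days (-0.57 ± 0.30, with overlap; -0.33 without letter b).

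In the catecholamine list Th and Maob lay on opposite sides of control. Th, whose promoter is shown first and whose enzyme limits the rate at which catecholamines are made, read 166, 136 and 215 in control and 256, 270 and 349 after 3 days. Every 3-day array was above every control, and within each letter pair the 3-day value was higher (0.75 ± 0.27; 0.80 after quantile normalization). With each array or letter left out in turn the difference ranged from 0.60 to 0.92. Its limma unadjusted p of 0.017 was 0.0019 with the replicate block, and neither passed over all probe sets.

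Maob, the mitochondrial enzyme that degrades monoamines, read 172, 217 and 245 in control and 133, 65.1 and 149 after 3 days. All 3-day arrays lay below control, with array b lowest (-0.91 ± 0.36; -0.56 without 3-day b). Among the other synthesis genes Qdpr, which recycles the cofactor of tyrosine hydroxylase, stood at -0.34 ± 0.27, and at -0.08 without letter a. Of the 11 list members tested, 6 were higher, and the median was 0.02 (-0.17 without letter c).

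**Figure D2:**
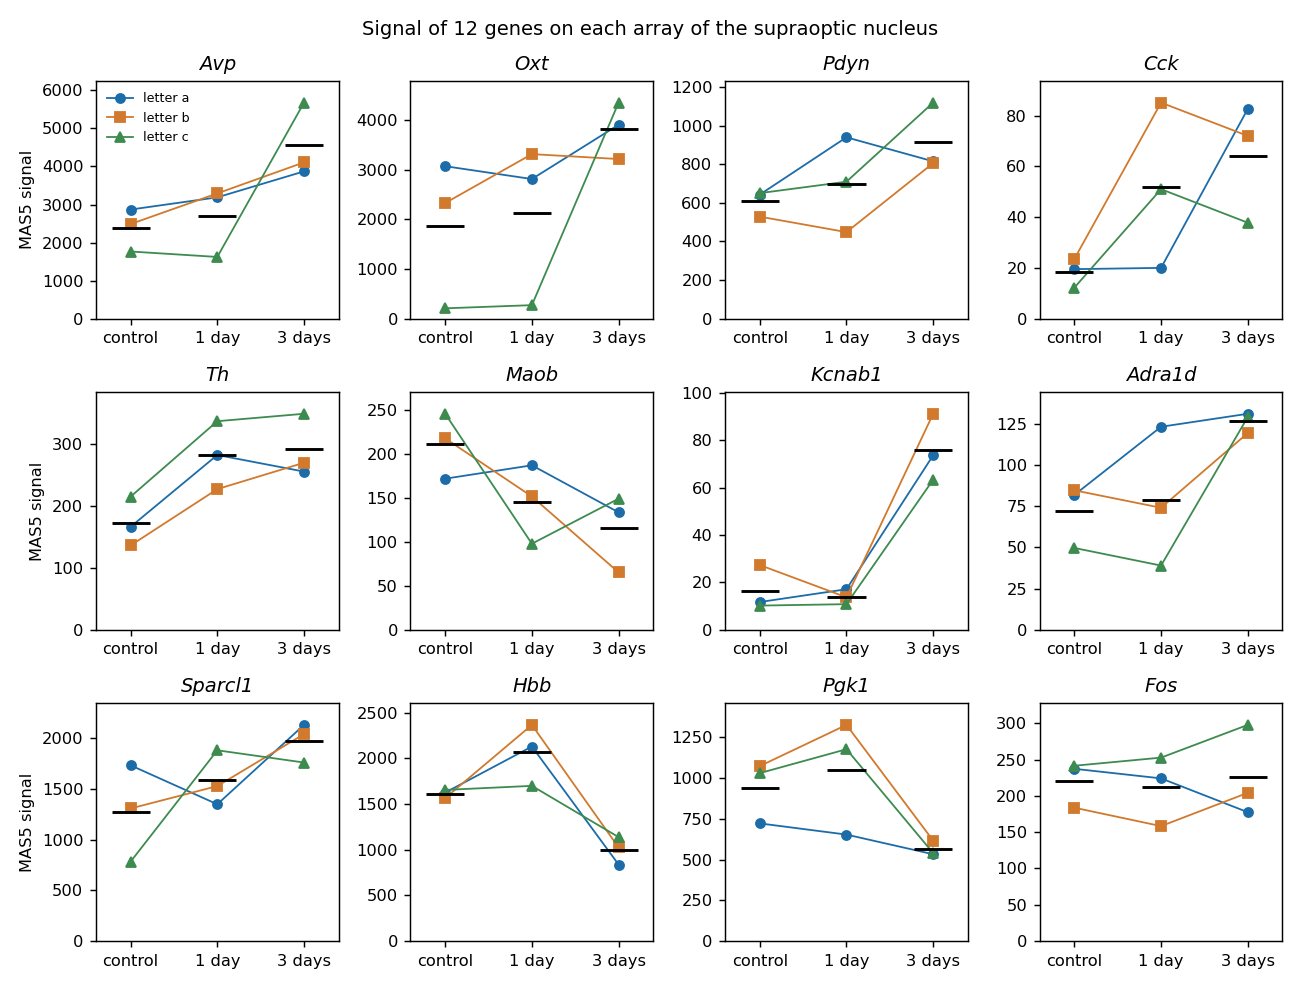
MAS5 signal (vertical axes, starting at 0) of 12 genes in control, after 1 day and after 3 days of dehydration. Each point is 1 array, lines join arrays of the same replicate letter, and black bars are group means of 3 arrays. Avp, Pdyn, Cck, Th, Kcnab1, Adra1d and Sparcl1 sit above control on all 3-day arrays, and Maob, Hbb and Pgk1 below. The Oxt difference rests mostly on the low control array c, and Fos overlaps.

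Receptors for monoamines and acetylcholine leaned higher at low signal. Of 28 tested genes 21 were higher, with a median of 0.32 and letter-pair medians of 0.20, 0.15 and 0.51; 26 of the 28 had a mean signal under 100. The median was 0.12 without control c and 0.14 without letter c. For comparison, over all 1791 genes under a signal of 100 the median was 0.03, and 0.13 in letter pair c. In 5 receptors all 3-day arrays lay above control, or 5 of 28 beside 4.61% of all genes, and in 0 below.

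Noradrenaline reaches these neurons from the brainstem, and 2 of the 5 receptors are for it. Adra1d, an alpha-1 adrenoceptor of the kind that excites magnocellular neurons, read 81.9, 84.7 and 49.7 in control and 131, 120 and 129 after 3 days (0.81 ± 0.39). The 3-day arrays lay close together, above all controls. Adra2a, the alpha-2A adrenoceptor, read 60.5, 9.0 and 54.7 in control and 70.3, 82.4 and 68.7 after 3 days (1.08 ± 0.54). Control b was far below the rest and without letter b the value was 0.26, and 2 other probe sets of it stood at -0.14 and 0.22. Htr5b, a serotonin receptor, read 31.5, 16.4 and 10.6 in control and 59.6, 59.6 and 42.7 after 3 days (1.39 ± 0.50). The other non-overlapping members, picked after their values were seen, were the dopamine receptor Drd5 at 0.61 ± 0.42 and the muscarinic receptor Chrm3 at 0.27 ± 0.27.

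Peptide receptors had 18 of 24 tested genes higher and a median of 0.09, with 0 fully above or below control; without control c the median was -0.0011. Of the natriuretic peptide receptors, Npr1 stood at 0.34 ± 0.33 (-0.01 without letter c) and Npr2 at -0.88 ± 0.51. Npr2 was -0.22 without 3-day b, which read 10.8 where the other 5 arrays of the comparison read 51.5 to 71.8. The neuropeptide Y receptor Npy1r stood at 0.42 ± 0.36, and 0.17 without control c. The vasopressin receptor Avpr1a and the oxytocin receptor Oxtr lay under the filter.

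Inhibitory and excitatory transmission genes both had medians near 0. The median of GABA and glycine genes was 0.03, with 12 of 23 higher and 0 outside the control range on either side. Leaving out control c gave -0.15, and leaving out 3-day b gave -0.10. Gabrb1, a GABA-A receptor subunit, stood at -0.81 ± 0.52 (-0.20 without 3-day b), Gabbr2, a GABA-B subunit, at -0.25 ± 0.24 and Gabarap, a receptor-trafficking protein, at -0.24 ± 0.23. Of 28 glutamate genes 15 were higher, with 4 fully above and 2 fully below control, beside 4.61% and 3.07% of all genes, and a median of 0.06. After quantile normalization 3 were fully above and 3 fully below.

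The NMDA receptor subunit Grin2b read 94.3, 76.5 and 49.3 in control and 126, 113 and 101 after 3 days (0.64 ± 0.32), with no overlap and control c lowest; without that array it was 0.40. Grin2a, picked after its values were seen, read 71.2, 49.2 and 64.7 in control and 90.2, 92.5 and 125 after 3 days (0.70 ± 0.42), also without overlap. Shank2, a scaffold of excitatory synapses, stood at 1.04 ± 0.59 with overlap, and at 0.38 without control b. Glul, the glutamine synthetase of astrocytes, stood at 0.48 ± 0.27 but at -0.12 after quantile normalization, and its other probe sets at -0.28, 0.83 and 0.33.

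Kcnab1 had the smallest p of all probe sets. It encodes a beta subunit that binds voltage-gated Kv1 potassium channels and gives them faster inactivation. It read 11.7, 27.3 and 10.2 in control and 73.6, 91.1 and 63.3 after 3 days. The lowest 3-day value was over the highest control by a wide margin, and the 1-day values of 17.1, 13.7 and 10.8 lay among the controls. The difference was 2.05 ± 0.44 (limma unadjusted p = 0.00076, adjusted p = 1.00; 0.00054 and 0.87 with the replicate block), and it ranged from 1.84 to 2.41 with each array or letter left out. It was 1.53 at the lowest over the 22 of 23 alternative settings in which this gene was tested.

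The channel list as a whole did not follow it: 21 of 39 tested were higher, and the median was 0.09, or -0.06 without control c. The only other gene of this voltage-gated channel list outside the control range was the related subunit Kcnab2, at 0.09 ± 0.21, picked after its values were seen. The list thus had 2 of 39 genes fully above control and 0 fully below, beside 4.61% and 3.07% of all genes. The L-type calcium channel Cacna1c stood at 0.80 ± 0.42 and the Kv3 potassium channel Kcnc1 at -0.47 ± 0.27, both with overlap, and without letter b at 0.40 and -0.20. P2rx2, an ATP-gated cation channel of vasopressin neurons, read 87.3, 173 and 138 in control and 188, 248 and 188 after 3 days (0.67 ± 0.30; 0.41 without control a), with no overlap. Other P2rx2 probe sets above the filter stood at 0.47 and 0.06.

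Transport of osmolytes, water and ions had 27 of 46 tested genes higher, 5 fully above control and 0 fully below, with a median of 0.05 (-0.07 without control c). Over all genes 4.61% were fully above and 3.07% below, and after quantile normalization the list had 3 above and 1 below. Slc6a8, the creatine transporter, read 249, 198 and 265 in control and 305, 332 and 293 after 3 days (0.39 ± 0.24; 0.21 without letter b). Trpv1, whose variant is a candidate osmosensor of these neurons, read 7.5, 10.3 and 14.7 in control and 39.2, 23.2 and 17.9 after 3 days (1.02 ± 0.61; 0.58 without letter a), near the floor of the array. Atp1b1, the sodium pump beta subunit, stood at 0.78 ± 0.44 on its brightest probe set, 0.24 after quantile normalization and 0.37 without control c, and at 0.29 and -1.48 on others. Slc12a2, the chloride importer NKCC1, read 183, 276 and 249 in control and 157, 293 and 169 after 3 days (-0.23 ± 0.31).

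Immediate early genes, which mark a recent burst of activity, showed no common difference. Fos read 237, 184 and 241 in control and 177, 204 and 298 after 3 days (0.01 ± 0.28), and Egr1 207, 385 and 402 against 218, 433 and 359 (0.03 ± 0.35). Both overlapped widely. Other probe sets stood at 0.24 and -0.33 for Fos and at -0.41, 0.44 and -0.74 for Egr1. Junb, an AP-1 subunit, read 72.0, 53.9 and 64.4 in control and 73.4, 73.5 and 95.9 after 3 days (0.33 ± 0.33), just clear of control.

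Of the 40 tested genes of that list 26 were higher, 1 fully above control and 0 below (4.61% and 3.07% over all genes). The median was 0.12, with letter-pair medians of 0.02, -0.01 and 0.29. The orphan receptors of the list differed in sign: Nr4a3 stood at 1.08 ± 0.72 (0.55 without control c) and Nr4a2 at -0.90 ± 0.58 (-0.54 without letter b), both at low signal with overlap. Id3, an inhibitor of helix-loop-helix factors, stood at -1.24 ± 0.63, and at -0.41 without 3-day b.

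Esrra, the estrogen-related receptor alpha that drives mitochondrial genes, had the smallest p of the genes fully below control. It read 50.3, 34.3 and 47.4 in control and 13.5, 6.7 and 12.9 after 3 days, with a wide gap (-1.69 ± 0.51). Nuclear receptors as a list had 16 of 25 tested genes higher and a median of 0.09. The coactivator Ncoa1 stood at 0.81 ± 0.45 without overlap. The glucocorticoid receptor Nr3c1 read 6.5 to 49.8 across the 6 arrays (-0.37 ± 0.81).

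In kinase signalling, Mapk6, the atypical kinase ERK3, read 186, 207 and 229 in control and 134, 150 and 93.1 after 3 days (-0.73 ± 0.27; -0.46 without letter c). The groups did not overlap, and a second probe set stood at -0.47. The phosphatases that switch off MAP kinases differed in sign, Dusp6 at -0.85 ± 0.64 and Dusp1 at 0.66 ± 0.63, but Dusp6 was -0.22 without 3-day c and Dusp1 0.33 without 3-day b. The MAP kinase list had 13 of 23 higher and a median of 0.07.

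Among G proteins and second messengers 47 of 79 tested genes were higher, 6 fully above control and 0 fully below (4.61% and 3.07% over all genes), with a median of 0.08 and letter-pair medians of 0.11, 0.06 and 0.09. Gnas, the stimulatory G protein that raises cyclic AMP, read 2458, 2536 and 1414 in control and 3186, 3127 and 4448 after 3 days (0.78 ± 0.34). It was 0.33 after quantile normalization and 0.34 without letter c, and other probe sets stood at -0.11, 0.50 and 1.02. Prkar1b, a regulatory subunit of protein kinase A, stood at 0.78 ± 0.39 (0.49 after quantile normalization, 0.25 without letter c), and the calcium-dependent kinase Camk2b at 0.56 ± 0.29 (0.11 without letter c).

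Adap1, which binds inositol phosphates and regulates the small GTPase Arf6, read 132, 135 and 116 in control and 199, 228 and 172 after 3 days. Every 3-day array was above control (0.62 ± 0.24; 0.65 after quantile normalization), and a dimmer probe set stood at 0.22 with overlap. Ncdn, the neuronal protein neurochondrin, read 699, 745 and 699 in control and 919, 857 and 1355 after 3 days, also without overlap (0.51 ± 0.24; 0.30 without letter c).

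Chaperones leaned lower. In the cytosolic list 19 of 26 tested genes were lower, with a median of -0.13 and letter-pair medians of -0.16, -0.07 and -0.12, but 0 were fully outside control, and without control c the median was -0.07. Dnaja1, an Hsp40 co-chaperone, read 389, 518 and 537 in control and 390, 201 and 307 after 3 days (-0.71 ± 0.39; -0.46 without 3-day b). A second Dnaja1 probe set read 173, 317 and 341 against 103, 140 and 151, with no overlap and a difference of -1.01. The related Dnaja4 read 180, 170 and 296 in control and 58.9, 139 and 158 after 3 days (-0.91 ± 0.41; -0.48 without 3-day a), and -0.16 on another probe set. The bright Hsp90ab1 stood at 0.68 ± 0.47, a value that was -0.02 without letter c.

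In the endoplasmic reticulum, where hormone precursors fold, 22 of 37 tested genes were lower and the median was -0.06 (0.12 without control c). Dnajb9, a co-chaperone of the folding factor BiP, read 48.3, 68.8 and 53.2 in control and 30.4, 4.2 and 35.4 after 3 days. All 3-day arrays lay below control and array b was far below (-1.43 ± 0.59; -0.71 without 3-day b, -0.57 without letter b). Hspa5, which encodes BiP, read 337, 548 and 508 in control and 314, 484 and 355 after 3 days (-0.26 ± 0.28), lower in each letter pair but overlapping. A further chaperone, Hyou1, stood at -0.47 ± 0.29 (-0.25 without letter c) and the calcium-binding Rcn2 at -0.68 ± 0.42 (-0.31 without control b).

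Vesicle and exocytosis genes stood a little higher in all letter pairs, with 42 of 63 tested genes up, 6 fully above control, 0 fully below and a median of 0.10 (0.07, 0.10 and 0.11 in pairs a, b and c). Over all genes 4.61% were fully above and 3.07% fully below. After quantile normalization the median was 0.11 with 3 fully above and 2 fully below, and without control c it was 0.06. Napa, alpha-SNAP, which recycles fusion complexes, read 582, 642 and 634 in control and 678, 786 and 967 after 3 days (0.37 ± 0.22; 0.24 without 3-day c). Dnm1, the dynamin that pinches off vesicles, read 1035, 1703 and 929 in control and 1658, 1681 and 2002 after 3 days (0.59 ± 0.27; 0.33 without letter c), where control b reached into the 3-day range. Stxbp5, tomosyn, stood at 0.65 ± 0.36. Rab6a, a GTPase of Golgi traffic, was lower on all 3-day arrays, at 203, 190 and 178 against 280, 273 and 396 in control (-0.70 ± 0.34).

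Actin and tubulin genes are among the brightest, and their values were smaller after quantile normalization. Actg1, cytoplasmic gamma-actin, read 3055, 1271 and 1102 in control and 3950, 3200 and 4752 after 3 days. The groups did not overlap, though control a came close to 3-day b (1.27 ± 0.44; 0.92 after quantile normalization, 0.85 without letter c). The suffix of its probe set marks probes shared within a gene family, so related actins may add to it. Tuba1b, an alpha-tubulin, stood at 0.74 ± 0.37 and the actin-binding Tmsb4x at 0.71 ± 0.39. After quantile normalization they stood at 0.26 and 0.29, and without control c at 0.41 and 0.34.

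The cytoskeleton list had 34 of 51 tested genes higher, 6 fully above control and 1 below, with a median of 0.15 (0.08 after quantile normalization, 0.04 without 3-day b). After quantile normalization 2 were fully above and 0 below; over all genes as deposited the shares are 4.61% and 3.07%, and 11.9% and 3.13% among the brightest. Schip1, a protein of the axon initial segment and nodes, was lower: it read 202, 296 and 355 in control and 136, 136 and 118 after 3 days, with no overlap (-1.07 ± 0.41).

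Matrix and adhesion genes had 30 of 48 tested members higher, with 4 fully above control, 1 below (4.61% and 3.07% over all genes) and a median of 0.14, which was -0.05 without control c. After quantile normalization 2 were fully above and 0 below. Sparcl1, the matricellular protein hevin that astrocytes secrete and that promotes synapse formation, read 1734, 1307 and 782 in control and 2133, 2042 and 1761 after 3 days (0.70 ± 0.30; 0.39 without control c). Cspg4, the NG2 proteoglycan of oligodendrocyte precursors and pericytes, read 29.1, 9.7 and 37.1 in control and 107, 61.0 and 59.3 after 3 days (1.54 ± 0.45). Neither overlapped with control. Itgb1, the integrin beta-1 subunit, stood at -1.09 ± 0.56, and at -0.47 without 3-day b.

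Growth factors and their receptors showed no common direction, with 23 of 47 higher and 0 outside control on either side. Ptn, pleiotrophin, stood at -1.17 ± 0.53, Igf2r, the mannose 6-phosphate receptor, at -1.17 ± 0.61 and Fgfr4 at 0.82 ± 0.45. Without letter b Ptn was -0.21 and Fgfr4 0.30.

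Energy metabolism gave values of both signs. In the respiratory chain 30 of 46 tested genes were lower, with a median of -0.09 and letter-pair medians of -0.19, 0.03 and -0.04. Of the 46, 2 were fully above control and 3 fully below, beside 4.61% and 3.07% of all genes. After quantile normalization the list had 0 above and 3 below. Ndufs4, a complex I subunit, read 141, 160 and 196 in control and 93.4, 103 and 130 after 3 days (-0.59 ± 0.28), and Uqcrfs1, the Rieske protein of complex III, stood at -0.42 ± 0.25 (-0.19 without letter c), both fully below control. The bright members fully above were Atp5f1b, the ATP synthase beta subunit, at 0.35 ± 0.21 and Cox4i1, picked after its values were seen, at 0.53 ± 0.32. After quantile normalization these 2 stood at 0.03 and 0.18. The mitochondrially encoded COX1 stood at 0.63 ± 0.30 (0.26 after quantile normalization, 0.36 without control c), and its second probe set at -0.62, with 308 on 3-day b against 2877 and 4193 on the other 3-day arrays.

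In glycolysis Pgk1, phosphoglycerate kinase, read 722, 1074 and 1031 in control and 533, 616 and 540 after 3 days. All 3-day arrays lay below control (-0.72 ± 0.30), but a second bright probe set stood at 0.00. Pgam1, phosphoglycerate mutase, stood at 1.18 ± 0.56 (0.54 without control c), and at 0.24 and -0.17 on other probe sets. Aldoc, the aldolase of astrocytes, stood at 0.80 ± 0.39 (0.36 after quantile normalization). Of the 40 tested genes 19 were higher, with a median of -0.01.

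Cholesterol and fatty acid synthesis had the largest share of lower members of the 33 lists, 17 of 21 tested genes, though the median was -0.10 (-0.04 without 3-day c). Beside 4.61% of all genes fully above control and 3.07% fully below, the list had 0 above and 1 gene below. That gene was Fdft1, squalene synthase, at 284, 277 and 276 in control and 236, 168 and 233 after 3 days (-0.40 ± 0.23; -0.25 without 3-day b). The letter-pair medians of the list were -0.09, 0.07 and -0.20. Mvk, mevalonate kinase, stood at 0.42 ± 0.31 and Nsdhl, a sterol dehydrogenase, at -0.70 ± 0.54. Without letter b Nsdhl stood at 0.0075.

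The median of ribosomal protein genes was -0.01, with 18 of 38 higher, but -0.11 with 12 of 38 higher after quantile normalization. Rpl4 read 687, 464 and 503 in control and 598, 18.7 and 461 after 3 days; the value of -1.56 ± 0.95 rests on 3-day b, and without it was -0.05. Rpl19 stood at 0.45 ± 0.25 and at 0.01 after quantile normalization. Rpl39 was at -0.75 ± 0.35 with overlap, and at -0.39 without letter b.

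The antioxidant median was -0.10 (0.02 without control c), with 20 of 35 genes lower. Gclm, the modifier subunit of the enzyme that limits glutathione synthesis, read 15.8, 22.5 and 39.1 in control and 50.6, 81.6 and 38.8 after 3 days (1.05 ± 0.41). The mitochondrial thioredoxin Txn2 stood at 0.48 ± 0.25 and the thioredoxin reductase Txnrd1 at -0.53 ± 0.27. All these overlapped. The proteasome list had 20 of 30 lower and a median of -0.09, while its activator subunit Psme2 was fully above control, at 86.2, 103 and 89.9 against 41.7, 65.8 and 63.3 (0.69 ± 0.30).

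**Figure D3:**
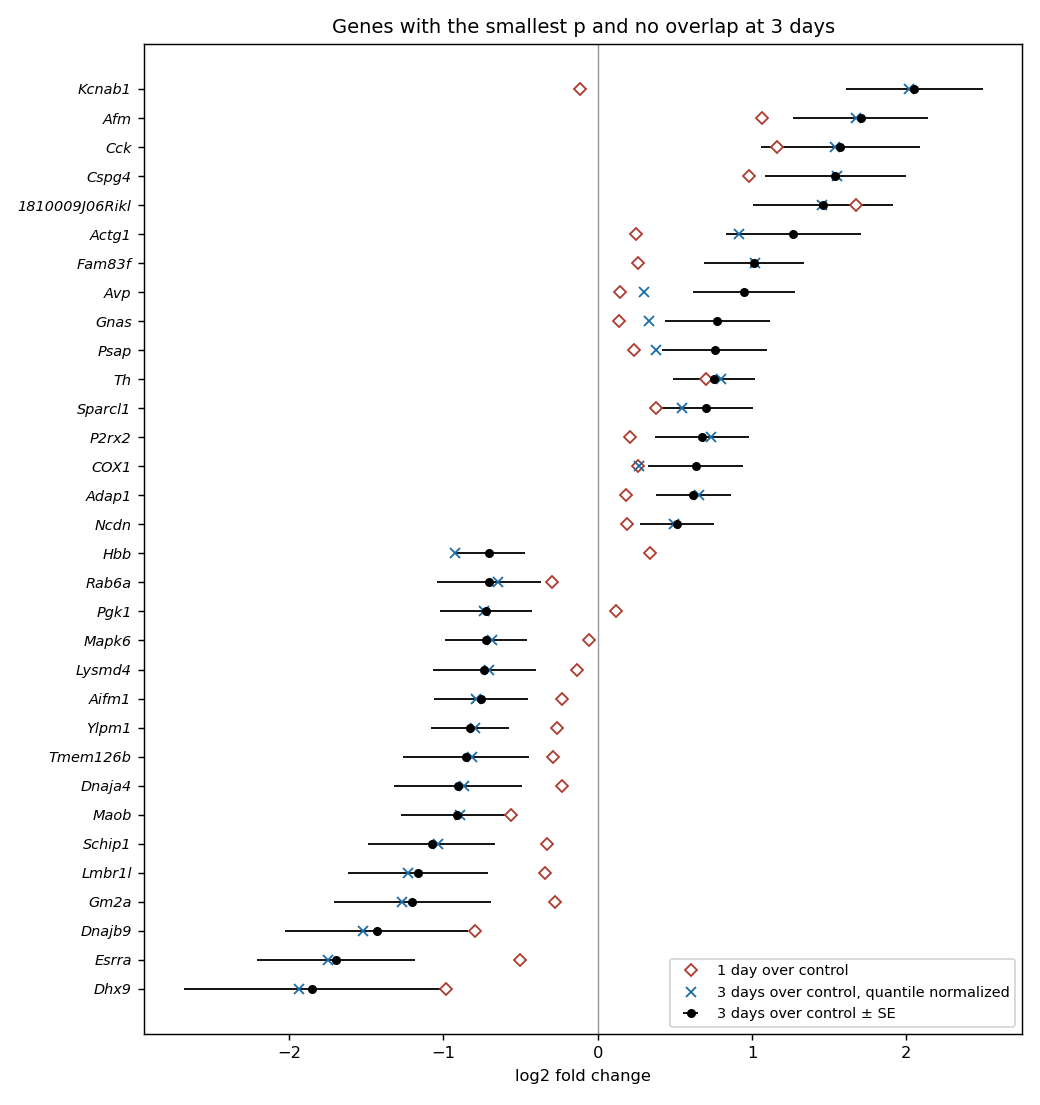
Differences (log2, horizontal axis) of the 32 genes with the smallest unadjusted p among those whose 3-day and control arrays do not overlap, 10 per direction at a mean signal of at least 100 and 6 per direction below it. Black points with bars are 3 days minus control ± SE (limma, 3 arrays per group), open diamonds are 1 day minus control, and crosses are 3 days minus control after quantile normalization; Avp, Gnas, Psap and COX1 have crosses well left of their points.

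The 32 genes in the plot of leading differences were ranked by their own values, so their direction is a description. Genes without overlap keep their sign whichever arrays are left out, so the way these were picked fixed their sign. Without control c, letter c, 3-day b or 3-day c, 21 of the 32 moved by less than 1.5 times in each. Psap, prosaposin, a lysosomal and secreted protein, stood at 0.76 ± 0.34 (0.38 after quantile normalization, 0.26 without letter c), and other probe sets at 0.07 and 0.25. Afm, which encodes the vitamin E-binding protein afamin, read 15.8, 13.8 and 8.6 in control and 53.1, 73.5 and 30.6 after 3 days (1.70 ± 0.44). Fam83f and 1810009J06Rikl, genes of little-known role in brain, stood at 1.01 ± 0.32 and 1.46 ± 0.45.

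On the lower side Ylpm1, a nuclear phosphatase regulator, had the smallest p of the genes fully below control at a mean signal of at least 100. It read 186, 187 and 170 in control and 115, 106 and 82.2 after 3 days (-0.83 ± 0.25), with tight groups that did not overlap, and -0.50 on a second probe set. Tmem126b, an assembly factor of complex I, read 99.2, 146 and 186 in control and 84.6, 64.0 and 78.7 after 3 days (-0.85 ± 0.41), and -1.03 on a second probe set. Lysmd4 stood at -0.73 ± 0.33, and at -0.38 without letter c. The dim genes were the mitochondrial flavoprotein Aifm1 at -0.76 ± 0.30, the receptor-like Lmbr1l at -1.16 ± 0.45, the ganglioside activator Gm2a at -1.20 ± 0.51 and the RNA helicase Dhx9 at -1.85 ± 0.83, which was -0.80 without letter b.

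**Figure D4:**
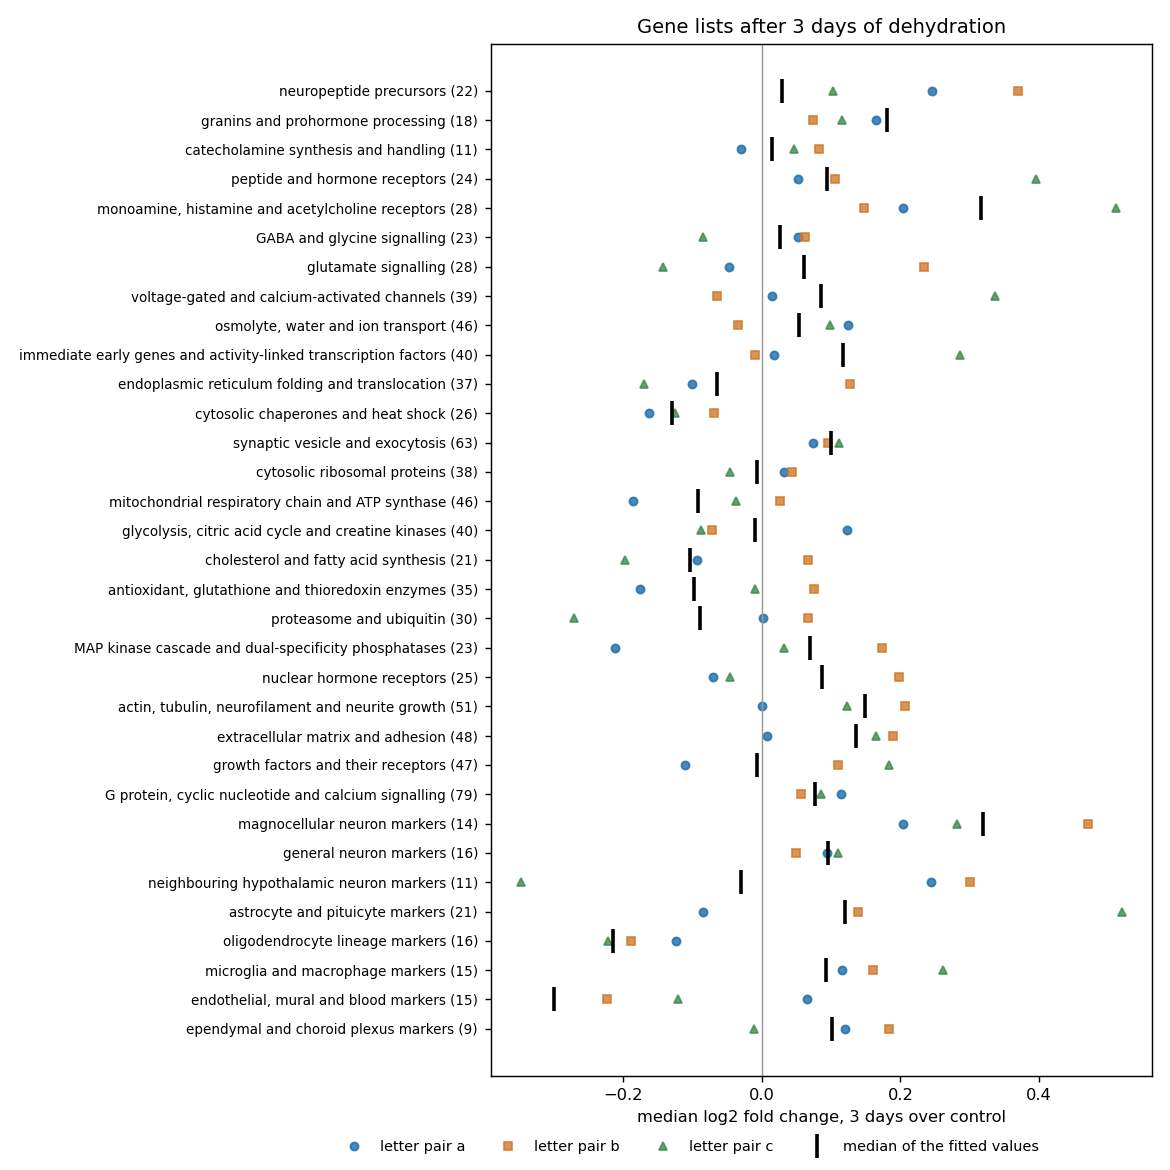
Median log2 difference between 3 days and control (horizontal axis) of 33 gene lists, with the number of genes tested in brackets. The black bar is the median of the fitted values, and coloured points are medians within letter pairs a, b and c; the magnocellular and monoamine receptor lists lie highest, at 0.32, and the endothelial and blood list lowest, at -0.30, and in 13 of 33 lists the 3 points fall on the same side of 0.

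Markers of the labelled tissue were present. Of 14 tested magnocellular markers 8 were higher, and the median was 0.32 (0.20, 0.47 and 0.28 in pairs a, b and c; 0.22 after quantile normalization, 0.20 without control c). The 5 fully above control, set beside 4.61% of all genes, were Avp, Oxt, Pdyn, Cck and Pcsk2. The summed signal of all 14 was 6819 to 10556 in control and 13046 to 15568 after 3 days. Avp and Oxt, the brightest members, weigh most in these sums, Oxt read 208 on control c, and 6 of the 14 were lower. No sum was taken after quantile normalization. General neuron markers had 10 of 16 higher, a median of 0.10, and sums of 10268 to 12139 against 12510 to 12852. Syt1, the calcium sensor of release, stood at 0.63 ± 0.42 (0.24 without control c) and Uchl1, an abundant neuronal hydrolase, at 0.37 ± 0.44. Markers of neighbouring hypothalamic neurons had 5 of 11 higher and a median of -0.03 (0.17 without control c, 0.20 without letter c, 0.10 without 3-day b), with sums of 2163 to 4008 in control and 2178 to 3363 after 3 days, and Pomc, Crh, Vip, Hdc, Esr1, Nr5a1 and Lhx1 under the filter.

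Glial and vascular markers were present in all groups. Astrocyte markers had 14 of 21 higher, a median of 0.12 and sums of 17252 to 23643 against 24229 to 33720, but 8 of 21 and -0.05 after quantile normalization and a median of -0.08 without letter c. Oligodendrocyte markers had 12 of 16 lower, a median of -0.21 (-0.07 without 3-day b), letter-pair medians of -0.12, -0.19 and -0.22, and overlapping sums of 8195 to 10911 and 6559 to 10588. The brightest of them, Mbp, myelin basic protein, read 2771, 2270 and 1406 in control and 3466, 998 and 3840 after 3 days (0.20 ± 0.52), and the lineage factor Sox10 stood at -0.45 ± 0.32 (-0.18 without control a). Microglial markers had 9 of 15 higher and a median of 0.09 (-0.05 without control c), with sums of 1692 to 1864 against 2024 to 2188. Ctss, the brightest member, weighs most in these sums, at 975, 1104 and 899 in control and 1211, 1166 and 1182 after 3 days. C1qc, a complement subunit, was fully above control at 0.45 ± 0.27, and Aif1, Itgam, Csf1r, Fcgr2b and Cd74 lay under the filter. The part of cell makeup in the differences above was not tested.

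The endothelial, mural and blood list had 9 of 15 lower and a median of -0.30 (-0.05 without 3-day b, 0.05 without 3-day c). The 6 higher were Cspg4 at 1.54, Ly6c at 0.51, Acta2 at 0.48, Pecam1 at 0.44, Cav1 at 0.26 and Slc4a1 at 0.23. Sums were 3759 to 3919 in control and 2539 to 3111 after 3 days, and the 2 beta-globin genes, the brightest members, weigh most in them. The beta-globin gene Hbb, which marks red cells, read 1624, 1564 and 1653 in control and 836, 1023 and 1136 after 3 days. The controls were tight and all 3-day arrays lay well below (-0.70 ± 0.23; -0.93 after quantile normalization). Hbb-b1, a near-identical globin whose probes can share transcripts with it, read 1049, 940 and 1189 against 574, 793 and 904 (-0.50 ± 0.26; -0.32 without 3-day a). Vwf, Kdr and Icam2, endothelial genes, lay under the filter. Ependymal and choroid markers had 5 of 9 higher and a median of 0.10 (-0.02 without control c, -0.05 without 3-day b). Their sums were 752 to 924 in control and 659 to 824 after 3 days. Enpp2 was fully below control, at 266, 215 and 244 in control and 181, 151 and 200 after 3 days (-0.44 ± 0.54). The 1-day array c, which enters that SE, read 44.4 for it, against 254 and 258 on 1-day arrays a and b.

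The 1-day arrays place some of these values in time. They share the controls with the 3-day comparison, so the values are only set side by side. Limma called 0 of 5245 probe sets at 1 day against control (0%) and 0 between 1 and 3 days (0%), with 53 and 96 at an unadjusted p under 0.05. Th read 282, 227 and 337 at 1 day, at the 3-day level (3 days minus 1 day 0.05 ± 0.27), and Vgf read 663, 642 and 666 (0.14 ± 0.24). Avp read 3189, 3292 and 1622 at 1 day, below all 3-day arrays (0.80 ± 0.33). Kcnab1 differed between the times by 2.16 ± 0.44 and Hbb by -1.04 ± 0.23. Adra1d stood at 0.02 at 1 day and 0.81 at 3 days, Esrra at -0.50 and -1.69, Cck at 1.16 and 1.57, and Maob at -0.56 and -0.91.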

How the data were processed

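The deposited intensity values of the 9 arrays are linear and, per the submitters' processing notes, come from MAS5 (no version is named). Read from the values, each array's mean after trimming 2 percent off each end lies at 100.12 to 100.15. The table holds 8799 probe sets, 59 of them controls; of the other 8740, 7006 have 1 symbol in the platform annotation, 308 several and 1426 none. By gene ID 6985 of these matched RefSeq (GRCr8) and 0 symbols changed.

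From the deposited intensities log2(signal + 4) was computed, a scale that shrinks the fold of low signals. A probe set was tested if its mean over the 9 arrays reached 23.1, the 40th percentile (5245 of them). The 3 group means were fitted on all 9 arrays with limma 3.58.1 in R 4.3.3, with 6 residual degrees of freedom, an intensity trend, two-sided moderated tests and Benjamini-Hochberg adjustment at 0.05. The fit was tested on simulated data. Figures used matplotlib 3.10.9. With 3 arrays per group precision is limited: the median SE was 0.39 over genes.

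The gene lists (33, of which 8 are cell type markers), the rule for named genes and the members were chosen with earlier results of these data known. That rule took genes past the threshold, then up to 10 genes per direction at a mean signal of at least 100 and 6 below it, ranked by p among those with no overlap and 1 direction in all letter pairs, up to 3 members per list by p, and 16 genes of interest, of which 15 had a probe set and 14 were tested. Lists were described by counts and medians, with no set test.

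The letters pair the arrays: same-letter deviations from group means correlated at 0.17 to 0.47 in all 9 pairs, against -0.33 to 0.12 for different letters. The SEs printed are from the fit without this pairing, with a median residual SD of 0.48, which was 0.36 with the replicate block. Alternatives were the pseudocount, the filter, normalization, the variance prior, the arrays fitted, each array or letter left out and the replicate block.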

Additional observations from a re-analysis of the deposited data

Results flagged for a closer look

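In 3 of the named genes every letter pair lay on one side of control at 1 day and on the other at 3 days. The beta-globin gene Hbb differed between 3 days and 1 day by -1.04 ± 0.23 (log2, ± SE), from 0.34 above control at 1 day to -0.70 at 3 days. The related globin gene Hbb-b1 differed by -1.07 ± 0.26, from 0.56 to -0.50, and the probes of the 2 genes can detect the same transcripts. The ATP synthase subunit Atp5f1b differed by 0.46 ± 0.21, from -0.11 to 0.35. None of the 3 differences passed over all probe sets in limma (adjusted p = 0.998 for each), and both times share the control arrays. Over all 3188 genes tested, 17 lay above control at 3 days and below it at 1 day in all letter pairs and 24 the other way round, together 1.29%.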

How the results depend on the processing

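The 3 counts of calls (3 days against control, 3 days against 1 day, 1 day against control) were 0 under all 23 alternatives, the fits without each array or letter included (lowest 0, highest 0). At 3 days the number with an unadjusted p under 0.05 ranged from 50 (filter at the 60th percentile) to 373 (replicate block on only the arrays compared), and the lowest adjusted p was 0.56. With the replicate block, which pairs the arrays, 0 were called at each comparison, with 270, 275 and 136 at an unadjusted p under 0.05. Among values at least 1 SE from 0, Glul took the other sign after quantile normalization (-0.12, also with the block), and 3 genes did so with arrays left out: Npr1 (from -0.0103 to 0.59), Hsp90ab1 (-0.0216 to 1.16) and Nsdhl (-1.11 to 0.0075). List medians over the fits with arrays left out ran from -0.0489 to 0.19 for matrix genes, -0.0481 to 0.22 for microglia, -0.34 to 0.0474 for endothelial and blood genes and -0.0548 to 0.19 for ependymal genes. With no filter these last 3 were -0.0119, 0.0093 and -0.0198, and the ependymal median was -0.28 with the filter at the 60th percentile and -0.0660 with all probe sets. The cause was not tested. Of 2618 gene values under the alternatives 86 moved by over 1 SE and 0 passed the threshold. Without control c, letter c, 3-day b or 3-day c, 14, 9, 6 and 5 of the 33 list medians took the other sign and 13 lists kept theirs in all 4. The genes fully above control numbered 147 with all 6 arrays and 275 without control c, 451 without letter c, 326 without 3-day b and 305 without 3-day c, with fewer arrays to compare; those fully below numbered 98, 219, 357, 282 and 199. These last counts were chosen after seeing the data.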
